A study of Mus musculus with 4 samples.

Results

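The 7 genes described here encode enzymes and transporters by which myeloid cells handle arginine, tryptophan and cystine: Nos2, Slc7a2, Ass1, Ido1, Il4i1, Odc1 and Slc7a11. They were taken by gene symbol from a table of read counts on 54532 genes, and each symbol was found. Of these, 5 had at least 10 counts in at least 1 of the 4 libraries, as did 16369 genes of the whole table, and Ido1 and Il4i1 did not. The cells were CD11b+Ly6g+ myeloid-derived suppressor cells (MDSCs) sorted by flow cytometry from enzyme-digested mouse lungs. The list names suppression, but only mRNA was measured, so enzyme activity, metabolites and suppression of T cells are outside these data.

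All mice, the controls included, were C57BL/6 animals of 6 to 8 weeks in a model of the pre-metastatic niche (PMN), the changed lung tissue that a tumor prepares before its cells arrive. For 10 days they were given 300 μL of melanoma-conditioned medium (MCM) into the peritoneum, and on day 7 they received 100000 B16F10 mouse melanoma cells by the tail vein. Ctrl mice had the model and no peptide. TP5 mice were given thymopentin, an immune-modulating pentapeptide. FR17 mice were given TP5 joined to a self-assembling peptide by a linker that MMP2 cuts, which leaves a lamellar assembly, the nano-blanket, in the lung. sFD17 mice were given the same construct with a scrambled pentapeptide, able to assemble but without the activity of TP5. Each peptide was injected under the skin at 40 μM/kg/day from day 3, and lungs were taken on day 10. Each group gave 1 library, for which the cells of 10 to 12 mice had been pooled. No group had a replicate, there was no library from healthy lung, and mouse-to-mouse spread could not be measured. For this reason no p-value is given, and each difference below is between libraries, not between conditions. The question that the study put to these libraries was whether effects on MDSCs came from TP5 or from the assembly, and the 3 peptides were given at the same dose and time.

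Library totals ran from 15543071 counts in sFD17 to 19638228 in FR17. Levels are per-million counts (CPM) after TMM scaling, with exact 95% Poisson intervals, and ratios between libraries have exact 95% intervals for the pair of counts. All of these intervals cover counting error only. Both sort markers were present in every library, with Itgam, which encodes CD11b, at 302 to 433 CPM and Ly6g at 73.1 to 111 CPM. All 18 neutrophil markers were detected in each library, led by S100a9 at 9050 to 13000 CPM, and their summed level was 46400 CPM in Ctrl, 47490 with TP5, 63120 with sFD17 and 37260 with FR17. Against Ctrl, 10, 17 and 5 of these 18 were higher in TP5, sFD17 and FR17, so the lower sum in FR17 was not shared by all of them. The sFD17 library stood apart for macrophage markers. The 16 of them, led by Chil3, summed to 6816 CPM in Ctrl, 5385 with TP5, 2458 with sFD17 and 8758 with FR17; all 16 were lower in sFD17 than in Ctrl and 14 were higher in FR17. Of the 10 markers of alternatively activated macrophages, which share Chil3 and Mrc1 with that list, the summed level in sFD17 was 0.407 times that in Ctrl. Without Chil3 the other 9 summed to 0.503 times Ctrl. Of the 10, 4 were at least 2-fold lower in sFD17 and 2 were higher than in Ctrl. The 11 NK cell markers were all higher in FR17 than in Ctrl, at 2.83 times the summed level. Of 7 melanoma markers, Tyr and Tyrp1 were at 0 in all 4 libraries and Mlana and Dct at 0 to 1 counts, while Sox10 had 0 to 8, Pmel 20 to 38 and Mitf 266 to 660. In such pools, fewer cells of a type and less RNA per cell cannot be told apart.

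Arginine is a shared substrate of enzymes that compete for it. Nitric oxide synthase turns it into nitric oxide and citrulline, while argininosuccinate synthase takes citrulline back toward arginine. MDSCs are known for holding T cells in check partly by using up arginine, by making nitric oxide, by taking up cystine and so limiting the cysteine that T cells get from other cells, and, through indoleamine 2,3-dioxygenase, by degrading tryptophan.

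RefSeq promoter sequences (250 bases before to 50 after the start of the gene, build GRCm38.p6) were at hand for 4 of the 7 genes. They are shown for Slc7a11, the most counted of the 7 and lowest in FR17, and for Ass1, which was over 2-fold higher in sFD17. The first lies on the minus strand at chr3:50443564-50443863 and the second on the plus strand at chr2:31470020-31470319, each written 5′ to 3′ along its gene.
Slc7a11: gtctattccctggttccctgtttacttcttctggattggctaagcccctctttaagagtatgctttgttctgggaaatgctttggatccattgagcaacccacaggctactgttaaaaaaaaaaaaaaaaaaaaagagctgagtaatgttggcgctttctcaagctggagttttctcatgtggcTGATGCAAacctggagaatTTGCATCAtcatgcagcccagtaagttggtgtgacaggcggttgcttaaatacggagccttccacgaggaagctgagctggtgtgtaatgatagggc
Ass1: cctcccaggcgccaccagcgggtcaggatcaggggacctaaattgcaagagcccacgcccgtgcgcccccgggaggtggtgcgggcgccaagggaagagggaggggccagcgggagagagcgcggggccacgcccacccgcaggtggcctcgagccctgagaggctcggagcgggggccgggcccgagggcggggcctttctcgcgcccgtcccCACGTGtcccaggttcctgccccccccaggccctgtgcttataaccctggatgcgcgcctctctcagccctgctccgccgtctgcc
The capitals in the Slc7a11 promoter mark 2 matches to TGATGNAA, the CEBP-ATF response element through which ATF4 acts on genes of amino acid shortage, at bases −66 to −59 and, on the other strand, −47 to −40 from the start. This motif was present in 4.0% of the 32851 mouse promoters of the same length. The capitals in the Ass1 promoter mark CACGTG, an E-box, at −36 to −31 from the RefSeq start, a motif present in 7.2% of promoters. The Ass1 coordinates given below begin upstream of that start, at 31470207, so the E-box lies within their span. Both strands were searched for these and for TGACNNNGC, the antioxidant response element (12.4% of promoters, none in the 4 at hand), and TTCNNNGAA, the interferon-gamma activated site (8.3%, with 1 match in Slc7a11). A match describes letters and says nothing of whether a factor was bound there.

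Set beside each other per kilobase of transcript, Slc7a11 was the most abundant of the 7 in every library. It was at 88.6 CPM per kilobase in Ctrl, 84.4 with TP5, 167 with sFD17 and 38.2 with FR17, which placed it between rank 362 and 1145 of 16369 genes. Odc1 was at 15.9 to 21.7, Slc7a2 at 1.34 to 7.83 and Ass1 at 4.91 to 10.0. Nos2 was at 0.119 to 0.174 in 3 libraries and at 2.30 in sFD17. By summed counts, not corrected for length, the 7 genes took 0.135% of the library in Ctrl, 0.134% with TP5, 0.206% with sFD17 and 0.0799% with FR17, and Slc7a11 alone made up 77.9 to 95.9% of those counts. Levels of each gene by library are plotted next.

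**Figure D1:**
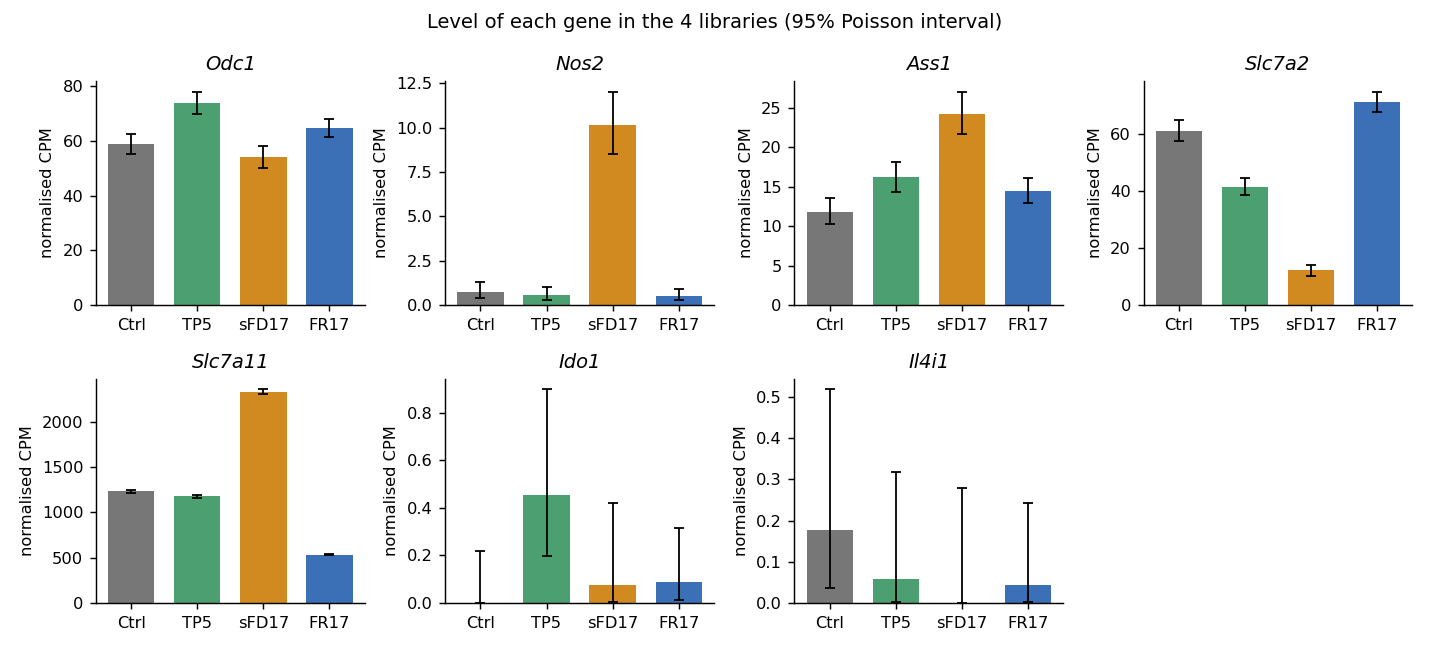
Level of the 7 genes in the 4 libraries, 1 panel a gene; the vertical axis is TMM-normalised CPM from 0, bars are the libraries Ctrl, TP5, sFD17 and FR17, and whiskers are exact 95% Poisson intervals. Nos2 stands out in sFD17 at 10.2 CPM against 0.523 to 0.770 elsewhere, Slc7a11 runs from 532 CPM in FR17 to 2328 in sFD17, and Ido1 and Il4i1 are near the limit of detection.

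Odc1 (ENSMUSG00000011179, chromosome 12 from 17544794 to 17551505, plus strand), ornithine decarboxylase, makes putrescine from ornithine, the first step toward the polyamines. It had 993 counts in Ctrl, 1295 with TP5, 713 with sFD17 and 1486 with FR17, or 58.8, 73.8, 54.0 and 64.7 CPM. After TMM scaling, Odc1 was the steadiest of the 5 tested genes, with a span of 0.45 on the log2 scale over the libraries. Its log2 fold change against Ctrl was 0.33 with TP5, −0.12 with sFD17 and 0.14 with FR17, and for sFD17 the counting interval of the ratio, 0.834 to 1.01, included 1. Per neutrophil marker the sFD17 and FR17 values were −0.56 and 0.45, and FR17 against sFD17 was past 2-fold at 1.02. Per macrophage marker they were 1.35 and −0.22, and FR17 against sFD17 was at −1.57.

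Nos2 (ENSMUSG00000020826, chromosome 11 from 78920787 to 78960254, plus strand), inducible nitric oxide synthase, had 13 counts in Ctrl, 10 with TP5, 134 with sFD17 and 12 with FR17. In CPM these were 0.770 (0.410 to 1.32), 0.570 (0.273 to 1.05), 10.2 (8.51 to 12.0) and 0.523 (0.270 to 0.913). The sFD17 library stood far above the other 3, whose intervals overlapped. Nos2 was 13.2-fold higher in sFD17 than in Ctrl (7.46 to 25.4), with a log2 fold change of 3.54. It was 17.8-fold higher in sFD17 than in TP5 (9.39 to 38.0) and 19.4-fold lower in FR17 than in sFD17 (10.8 to 38.5). In TP5 and FR17 the log2 fold change against Ctrl was −0.37 and −0.47, and with 10 to 13 counts a library the intervals of the ratios reached 1.83 and 1.62, so a difference of that size was not detectable at this depth. The sFD17 value was the largest difference from Ctrl among the 5 tested genes, and it stayed above 2-fold under the 4 other scalings tried, at 9.70-fold per neutrophil marker and 36.6-fold per macrophage marker.

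Ass1 (ENSMUSG00000076441, chromosome 2 from 31470207 to 31520672, plus strand), argininosuccinate synthase, had 200 counts in Ctrl, 284 with TP5, 320 with sFD17 and 332 with FR17, or 11.8, 16.2, 24.3 and 14.5 CPM. Ctrl was lowest and all 3 peptide libraries were higher. Ass1 was 2.05-fold higher in sFD17 (1.71 to 2.46), with log2 fold changes of 0.45 with TP5, 1.03 with sFD17 and 0.29 with FR17. For FR17 against TP5 the interval of the ratio, 0.760 to 1.05, included 1. With library size alone or neutrophil markers as the scale, the sFD17 value was 0.81 or 0.59 and under 2-fold, and per macrophage marker Ass1 was at 0.951 times Ctrl in FR17. Per neutrophil marker sFD17 and FR17 were nearly level, at 1.51 and 1.52 times Ctrl. After TMM scaling, where Ass1 was highest in sFD17, the summed epithelial markers, led by Scgb1a1, were also highest there, at 1.97 times Ctrl against 1.47 in TP5 and 1.19 in FR17. Scgb1a1 made up most of that sum, and 9, 9 and 11 of the 13 markers were higher than Ctrl in TP5, sFD17 and FR17. Without Scgb1a1, the other 12 summed to 1.17, 1.26 and 1.18 times Ctrl in TP5, sFD17 and FR17. The part of epithelial cells in the Ass1 values was not tested.

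Slc7a2 (ENSMUSG00000031596, chromosome 8 from 40862396 to 40922308, plus strand) encodes CAT2, a transporter of arginine and other cationic amino acids. It had 1034 counts in Ctrl, 729 with TP5, 161 with sFD17 and 1641 with FR17, or 61.2, 41.6, 12.2 and 71.5 CPM. FR17 was highest and sFD17 lowest, whereas Nos2, whose substrate it carries, was highest in sFD17. Slc7a2 was 5.02-fold lower in sFD17 than in Ctrl (4.25 to 5.96), and the ratio of FR17 to Ctrl was 1.17 (1.08 to 1.26). Between FR17 and sFD17 it was 5.86-fold higher in FR17 (4.98 to 6.93).

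Macrophage markers followed the same order of libraries as Slc7a2. Their summed level was 0.790, 0.361 and 1.28 times Ctrl in TP5, sFD17 and FR17, against 0.679, 0.199 and 1.17 times for Slc7a2. Per macrophage marker, Slc7a2 was at 0.859, 0.553 and 0.909 times its Ctrl ratio, so the sFD17 value was under 2-fold on that scale. The part of macrophages in the Slc7a2 values was not tested. Gm26584, which shares 635 of the 9135 exon bases on the other strand, had 0 to 10 counts.

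Slc7a11 (ENSMUSG00000027737, chromosome 3 from 49892526 to 50443614, minus strand) encodes xCT, the exchanger that brings cystine into the cell for glutamate. It had 20835 counts in Ctrl, 20617 with TP5, 30722 with sFD17 and 12218 with FR17, or 1233, 1175, 2328 and 532 CPM. Ctrl and TP5 were nearly level, sFD17 was higher and FR17 lower. The log2 fold change against Ctrl was −0.07 with TP5, 0.92 with sFD17 and −1.21 with FR17, so Slc7a11 was 1.89 times Ctrl in sFD17 (1.85 to 1.92) and 2.32-fold lower in FR17 (2.27 to 2.37). The narrow intervals come from the high counts and leave the spread between mice unmeasured.

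FR17 was lower in Slc7a11 than either other peptide, at 4.37-fold below sFD17 (4.28 to 4.47) and 2.21-fold below TP5 (2.16 to 2.26). Per neutrophil marker, Slc7a11 was at 0.931, 1.39 and 0.537 times Ctrl in TP5, sFD17 and FR17. The order of the libraries was kept on that scale, and the FR17 value, −0.90 on the log2 scale, was under 2-fold. With library size alone it was −0.97.

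Ido1 (ENSMUSG00000031551, chromosome 8 from 24584136 to 24597009, minus strand), which starts the breakdown of tryptophan to kynurenine, had 0 counts in Ctrl, 8 with TP5, 1 with sFD17 and 2 with FR17. A count of 0 in Ctrl allows up to 3 counts, or 0.178 CPM. Against that floor the 8 counts of TP5 were at least 2.57-fold higher, leaving aside the counting error of the TP5 value. The 95% intervals of both libraries overlapped, with that of Ctrl reaching 0.218 CPM and that of TP5 starting at 0.197 CPM. The ratio of FR17 to TP5 was 0.191 (0.0198 to 0.957), and that of sFD17 to TP5 was 0.166, with an interval of 0.00374 to 1.24 that included 1. Of 14 dendritic cell markers, led by Cd83, 12, 8 and 13 were higher than Ctrl in TP5, sFD17 and FR17, and their summed level was 1.56, 0.987 and 1.22 times Ctrl in TP5, sFD17 and FR17. Their part in the Ido1 counts was not tested. Il4i1 (ENSMUSG00000074141, chromosome 7 from 44816387 to 44840809, plus strand), an oxidase of aromatic amino acids, had 3, 1, 0 and 1 counts in Ctrl, TP5, sFD17 and FR17, at or under the floor of 3 counts in every library. Most of its exon bases, 3423 of 4080, also lie in Tbc1d17 on the other strand, a gene with 333 to 744 counts, so its counts are uncertain. Both tryptophan genes were therefore near or under what this depth can detect.

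**Figure D2:**
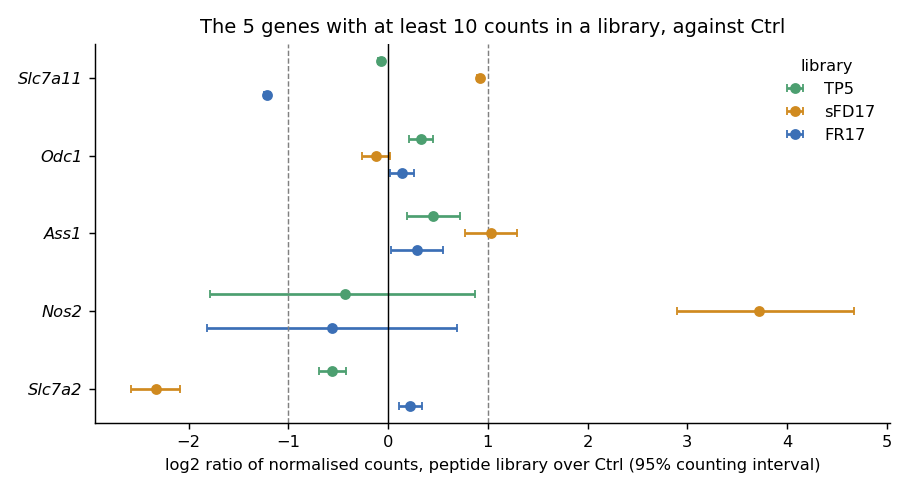
Log2 ratio of normalised counts of each peptide library over Ctrl for the 5 genes that reached 10 counts in a library; points are the ratios, whiskers are exact 95% counting intervals, and dashed lines mark 2-fold. Slc7a2 in sFD17 and Nos2 in sFD17 lie farthest from 0 on opposite sides; Nos2 points lie slightly farther out than its log2 fold changes, which were computed with a prior count of 2.

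Read by library, the 5 tested genes had their fewest differences in TP5. None was 2-fold from Ctrl there, where 3.20% of all tested genes were at least 2-fold higher and 4.99% at least 2-fold lower, and the median log2 fold change of the 5 was −0.07 against 0.00 for all genes. In sFD17, Nos2 and Ass1 were at least 2-fold higher (5.32% of all genes) and Slc7a2 at least 2-fold lower (6.47%), with a median of 0.92 against −0.03. In FR17 none was 2-fold higher (3.92%) and Slc7a11 was 2-fold lower (3.58%), with a median of 0.14 against 0.02. Over 5 genes these counts are a description. With library size alone or neutrophil markers as the scale, Ass1 in sFD17 and Slc7a11 in FR17 were under 2-fold, which left 2 of the 5 genes past 2-fold in sFD17 and none in FR17.

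The peptides were also compared with each other in 3 pairs. FR17 and sFD17 differ only in the order of the pentapeptide, and 3 of the 5 genes differed at least 2-fold between them, with Nos2 and Slc7a11 lower and Slc7a2 higher in FR17, where 22.1% of all genes differed as much. Their median log2 difference was −0.74 against 0.07 for all genes. Per neutrophil marker Odc1 was also past 2-fold, at 1.02, higher in FR17. FR17 and TP5 share the pentapeptide and differ in the assembling part, and 1 of 5 genes, Slc7a11, differed at least 2-fold (9.92% of all genes), with a median of −0.16 against −0.02. With library size alone as the scale, none of the 5 did, and per neutrophil marker the 1 gene past 2-fold was Slc7a2, at 1.13 on the log2 scale, with Slc7a11 at −0.79. sFD17 differs from TP5 in both features, and 2 of 5 genes, Nos2 and Slc7a2, differed at least 2-fold (12.4%), with a median of 0.58 against −0.04. Per macrophage marker, Slc7a2 was under 2-fold in both pairs with sFD17, at 0.72 for FR17 against sFD17 and −0.64 for sFD17 against TP5. In the last pair Slc7a11 was just under the limit, at 1.98-fold higher in sFD17 (1.95 to 2.02).

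The genes were also counted by a looser limit and by a test of the kind the study used. At 1.5-fold either way, 0, 4 and 1 of the 5 genes differed from Ctrl in TP5, sFD17 and FR17, where 20.8%, 29.0% and 22.7% of all genes did. Between peptides, 4 genes differed in FR17 against sFD17, 2 in FR17 against TP5 and 3 in sFD17 against TP5, beside 46.0%, 24.5% and 31.8% of all genes. The gene added in sFD17 against Ctrl was Slc7a11. By the exact test of edgeR between 2 libraries, at an unadjusted threshold of 0.05, with a dispersion estimated from the 4 libraries as 1 group, 0 of the 5 genes passed in TP5 (1.98% of all genes), 3 in sFD17 (4.83%) and 1 in FR17 (1.88%). The genes were those named above at 2-fold. The same test passed 3 genes for FR17 against sFD17 (12.7%), 1 for FR17 against TP5 (3.67%) and 2 for sFD17 against TP5 (4.64%). It compares these libraries and not the treatments.

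**Figure D3:**
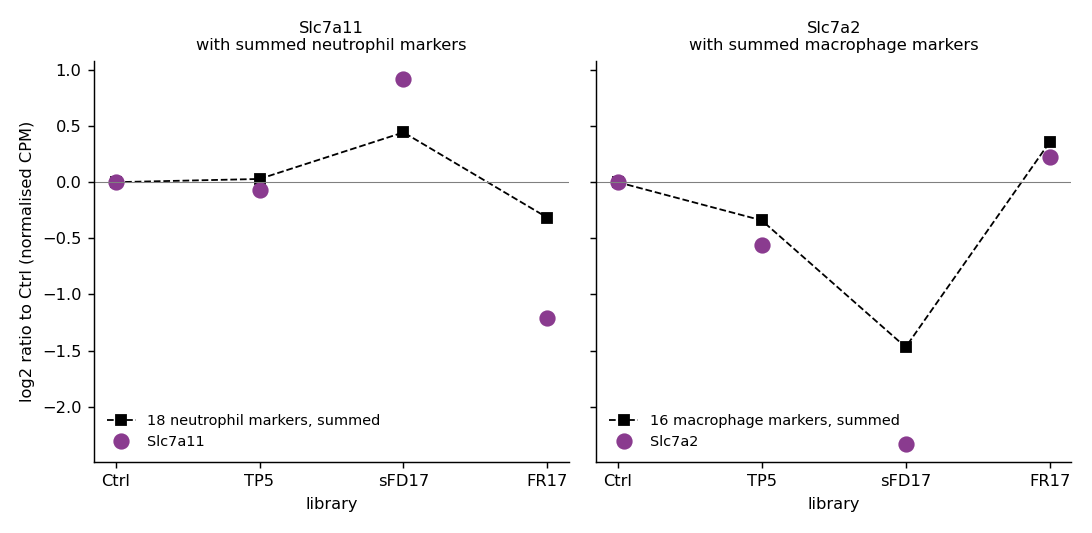
Log2 ratio to Ctrl of normalised CPM in each library, with Slc7a11 beside the summed level of 18 neutrophil markers on the left, and Slc7a2 beside that of 16 macrophage markers on the right; the dashed line joins the marker sums. Slc7a11 lies above Ctrl in sFD17 and below it in FR17 as the neutrophil sum does, farther out in both, and Slc7a2 is lowest in sFD17, where the macrophage sum is 0.361 times Ctrl.

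The other genes of these pathways were followed in 6 lists, and counts are of genes higher or lower than Ctrl at any size. Medians near 0 depend on the scale, since library size alone moved the median log2 fold change of all genes to 0.05 for TP5, −0.23 for sFD17 and 0.26 for FR17. In the list of arginine, urea cycle and nitric oxide genes, 26 of 33 were tested, and 16, 8 and 14 were higher in TP5, sFD17 and FR17, or 17, 5 and 20 with library size alone. The list's median log2 fold change was 0.08, −0.12 and 0.09. The single gene at least 2-fold lower in each library was Slc25a2, an ornithine carrier of mitochondria with 7 to 20 counts, named after its values were seen. Slc7a1, the other main arginine transporter, was at 0.80 in TP5, with 308 counts in Ctrl and 558 in TP5, and Prmt1, an arginine methyltransferase, was at 0.65. In sFD17, Gch1, which makes the cofactor of nitric oxide synthase, was at 0.87 and Gamt, which makes creatine, at −0.91. In FR17, Qdpr, which regenerates that cofactor, was at 0.66.

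Among polyamine genes, 17 of 18 were tested, and Smox, spermine oxidase, went with Slc7a11 in order of libraries. It had 8946 counts in Ctrl, 6096 with TP5, 14422 with sFD17 and 5973 with FR17, and log2 fold changes of −0.61, 1.04 and −1.03. With library size alone the sFD17 and FR17 values were 0.83 and −0.78, under 2-fold. Of the 17 genes, 12, 8 and 9 were higher than Ctrl in TP5, sFD17 and FR17, or 12, 6 and 12 with library size alone. Amd2, named after its values were seen, was at least 2-fold lower in all 3 libraries, with 33 counts in Ctrl and 5 to 11 elsewhere, and reads of the near-identical Amd1 may be split with it. Amd1, S-adenosylmethionine decarboxylase, was at 0.62 in TP5. Paox, polyamine oxidase, was at −0.65 in TP5 and −0.77 in sFD17, and Azin1, an activator of ornithine decarboxylase, at −0.49 in FR17.

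Of the tryptophan and kynurenine genes, 18 of 24 were tested, and 10, 11 and 11 were higher in TP5, sFD17 and FR17, or 10, 9 and 15 with library size alone. Kynu, kynureninase, was the only one past 2-fold, at −1.25 in sFD17, with 206 counts in Ctrl and 67 in sFD17, and per macrophage marker it was at 0.21. Kmo, which makes 3-hydroxykynurenine, was at 0.70 and Afmid, the formamidase of the pathway, at 0.58 in TP5. Slc36a4, an amino acid transporter, was at −0.76 in sFD17. Tiparp and Gpr35, a target of the aryl hydrocarbon receptor and a receptor for kynurenic acid, were at −0.81 and −0.80 in FR17. The cystine, glutathione and thioredoxin list had 23 of 25 genes tested, of which 6, 17 and 8 were higher than Ctrl in TP5, sFD17 and FR17, with medians of −0.12, 0.27 and −0.21. Relative to the median of all genes, 17 of the 23 were above it in sFD17 and 7 in FR17. Since a scaling moves each gene and that median together, it could hardly alter these counts and does not check them. Against 0, the sFD17 median was 0.05 with library size alone and −0.18 per neutrophil marker, where all genes had −0.23 and −0.45, and the FR17 median was 0.03 and 0.10, where all genes had 0.26 and 0.33. Ggt1, which breaks down extracellular glutathione, was at 1.74 in sFD17, with 52 counts in Ctrl and 139 in sFD17, and Nqo1, a quinone reductase, was at 0.92. Gsta4, a glutathione transferase, was at 1.16 in TP5 and Ggt5 at −0.57. In FR17, Chac1, which degrades glutathione, was at −0.77 and Gsr, glutathione reductase, at −0.72.

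The amino acid shortage list holds the kinase GCN2, the transcription factor ATF4 and its targets, and all 20 genes were tested. In TP5, sFD17 and FR17, 11, 13 and 8 were higher than Ctrl, or 14, 7 and 13 with library size alone. Phgdh, the first enzyme of serine synthesis, ran opposite in the assembling peptides, with 263 counts in Ctrl, 226 with TP5, 44 with sFD17 and 755 with FR17 and log2 fold changes of −0.27, −2.19 and 1.07. Its order of libraries, FR17, Ctrl, TP5 and sFD17, was that of Slc7a2 and of the macrophage markers, and per macrophage marker its sFD17 and FR17 values were −0.74 and 0.71, under 2-fold. Mthfd2, a mitochondrial folate enzyme, was at 0.95 in TP5 and 0.73 in sFD17, Psat1, also of serine synthesis, at 0.89 in TP5, and Sesn2, a sestrin, at −0.67 in FR17.

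**Figure D4:**
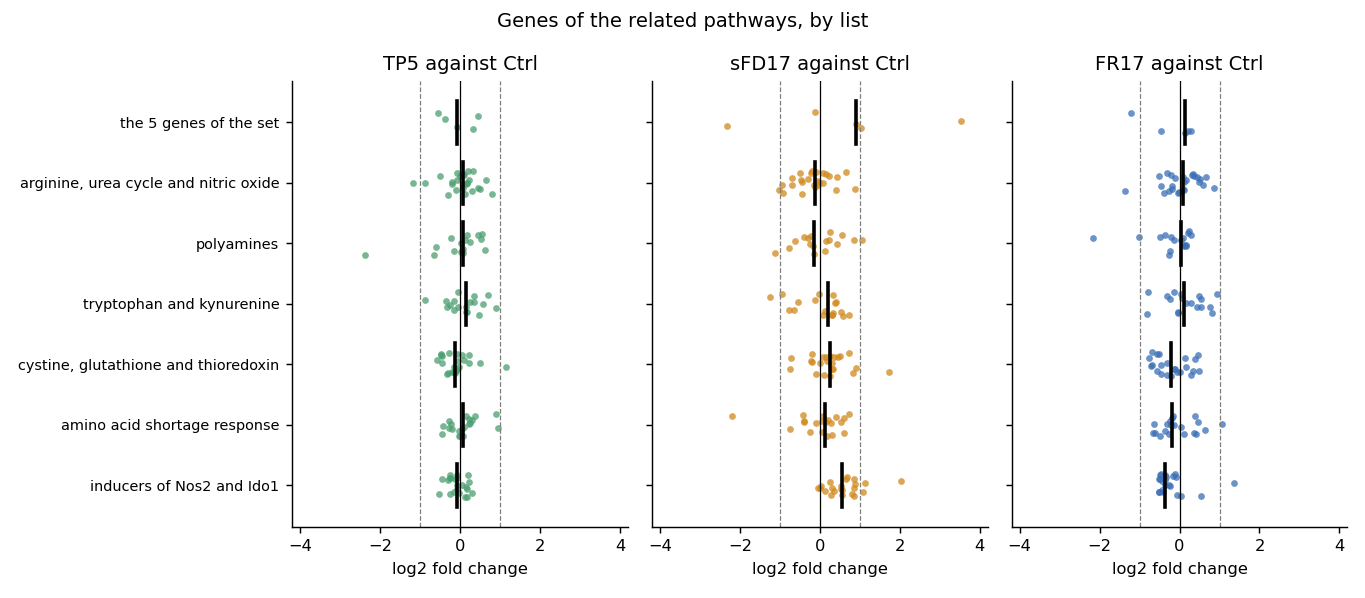
Log2 fold change against Ctrl of each tested gene, in rows for the 5 genes of the set and for 6 lists of related genes, and in columns for TP5, sFD17 and FR17; points are genes, black bars are medians and dashed lines mark 2-fold. The inducers of Nos2 and Ido1 lie right of 0 in sFD17, with a median of 0.56, and left of it in FR17, with a median of −0.36 (−0.044 per neutrophil marker, where the median of all genes is 0.33).

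The list called inducers of Nos2 and Ido1 holds interferon, NF-κB and related signaling genes, not each of which is itself an inducer. Of its 22 genes, all tested, 8 were higher with TP5, 21 with sFD17 and 3 with FR17, with medians of −0.08, 0.56 and −0.36. Relative to the median of all genes, 21 of the 22 were above it in sFD17 and 3 in FR17. A scaling moves each gene and that median together, so it could hardly alter these counts and does not check them. Against 0, with library size alone and per neutrophil marker, the sFD17 median was 0.34 and 0.11, with 18 and 14 genes higher, where all genes had −0.23 and −0.45. In FR17 it was −0.11 and −0.044, with 8 and 9 genes higher, where all genes had 0.26 and 0.33. Stat2, a transducer of type I interferon signals, was at 2.03 in sFD17, with 976 counts in Ctrl and 3112 in sFD17, and Nfkb2, a subunit of NF-κB, was at 1.12. Tnf, the third gene past 2-fold there, was at 1.09 and was named after its values were seen. With library size alone Nfkb2 and Tnf were at 0.90 and 0.87, and per neutrophil marker at 0.68 and 0.65, all under 2-fold, while Stat2 was at 1.81 and 1.58. Ifng, the cytokine that turns on both Nos2 and Ido1, was at 1.35 in FR17, with 15 counts in Ctrl and 56 in FR17, in the library where NK cell markers were highest. There the 12 T cell markers, led by Cd4, were also all higher than in Ctrl, at 1.86 times the summed level, as were 13 of 14 markers of group 2 innate lymphoid cells, led by Il1rl1, at 1.69 times. The part of any of these cells in the Ifng value was not tested. Irf8 was at 0.55 in FR17, and in TP5 Irf1 was at −0.53.

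For the genes whose level spanned at least 2-fold over the libraries and reached 50 counts, the most similar profiles were sought among genes with at least 50 counts in every library. Likeness was the Euclidean distance between log2 CPM centred on each gene's mean over the 4 libraries, given as a description with no test. Of 9799 genes compared, those nearest to Nos2 were the interferon-induced Ifit3 at a distance of 0.0875, Gbp5 at 0.336 and Ifit1 at 0.342. Ifit3 had 603 counts in Ctrl, 500 with TP5, 5243 with sFD17 and 571 with FR17. Nos2 itself had 13, 10 and 12 counts in Ctrl, TP5 and FR17. Its log2 counting interval for TP5 against Ctrl, −1.78 to 0.87, was wider than these distances, so the order of its neighbours was not resolved. For the other genes 9798 were compared. Those nearest to Slc7a2 were the macrophage mannose receptor Mrc1 at 0.256, F7 at 0.277 and Ctsk, a lysosomal protease, at 0.309. Mrc1, one of the macrophage markers, had 8819, 5852, 1652 and 14180 counts in Ctrl, TP5, sFD17 and FR17.

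Slc7a11 was most like Gm28192 at 0.137, Pde7b at 0.195 and Nlrp3, an inflammasome sensor, at 0.213, with 33262 counts of Nlrp3 in Ctrl, 36529 with TP5, 52234 with sFD17 and 23900 with FR17. Ass1 was most like Dbn1 at 0.0955, Enpp5 at 0.113 and Sftpb, which encodes a surfactant protein of alveolar epithelium, at 0.117. Sftpb is among the 13 epithelial markers, of which 9 were higher in sFD17 than in Ctrl and the rest were not.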

How the data were processed

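Lung CD11b+Ly6g+ MDSCs of 4 groups were measured by mRNA sequencing, with 1 library a group from 10 to 12 pooled mice, made with TRIzol and a directional NEBNext kit. The values are read counts for each gene as the authors deposited them, unnormalised, beside gene lengths and coordinates. The submitters' processing notes name HISAT2 2.0.5, StringTie 1.3.3b, featureCounts 1.5.0-p3, edgeR 3.18.1 and GRCm38.p6, with no role or order. Strand use in counting is not given in the sources used here. Of the gene identifiers, 54409 of 54532 are in GENCODE M21, 53499 with the same coordinates. For 100 symbols on several rows the row with most counts was used.

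With R 4.3.3 and edgeR 4.0.16, log2 fold changes were computed from CPM with TMM factors (0.986 for Ctrl, 1.02 for TP5, 0.849 for sFD17 and 1.17 for FR17) and a prior count of 2, over the 16369 genes that reached 10 counts in any library. A gene was counted when it differed at least 2-fold. Ratios carry exact 95% Clopper-Pearson intervals, and 3 counts correspond to 0.131 to 0.227 CPM. The exact test's biological coefficient of variation was 0.212 to 0.449, with a common value of 0.267. This dispersion includes differences between treatments. The procedure was tested on simulated data.

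Genes named are 7 of the set, both sort markers, in each list and peptide library the 2 largest differences with at least 50 counts, the 3 nearest profiles of each gene spanning 2-fold, and the most abundant gene of a marker list and those at 0. Genes that overlap a member, the other melanoma markers and those said to be so were named after their values were seen. Of the 9 genes that the rule finds, 2 are not reported here, nor are some genes and 1 list that the naming rule selects, and every count, median and share over the set is over the 7. The genes and lists were chosen with earlier results of these data known. The alternatives were DESeq2 1.42.0 size factors, library size alone, summed neutrophil markers, other filters, a prior count of 0.5, 1.5-fold and edgeR's exact test. Scaling by macrophage markers was added after seeing the data. Python 3.11.15, pandas 2.3.3, numpy 2.4.6 and matplotlib 3.10.9 were used for promoters and plots.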

Additional observations from a re-analysis of the deposited data

How the results depend on the processing

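At least 10 counts in every library, a prior count of 0.5, DESeq2 size factors, macrophage markers and the exact test left each of the 6 counts of genes past the limit within 1.5 times its value, and the first 2 left each of the 6 medians within counting error. With macrophage markers, however, the genes that made up a count were not always the same. The number of the 5 genes at least 2-fold apart was 0 for TP5 against Ctrl, and 1 with no filter. For FR17 against Ctrl it was 1, and 0 with library size or with neutrophil markers. For FR17 against TP5 it was 1, and 0 with library size, 2 with no filter and 2 at 1.5-fold, while with neutrophil markers the 1 gene was Slc7a2 in place of Slc7a11. The median of −0.07 for TP5 against Ctrl was −0.0179 with library size, −0.103 with neutrophil and 0.27 with macrophage markers. The median of 0.92 for sFD17 against Ctrl was 0.96 with DESeq2 size factors, 0.70 with library size, 0.47 with neutrophil markers, 0.72 with no filter and 2.39 with macrophage markers. That of 0.14 for FR17 against Ctrl was 0.38 with library size, 0.45 with neutrophil and −0.22 with macrophage markers. That of −0.74 for FR17 against sFD17 was −0.28 with library size, 0.0147 with neutrophil markers, 0.13 with no filter and −2.57 with macrophage markers. That of −0.16 for FR17 against TP5 was 0.0309 with library size, 0.19 with neutrophil and −0.86 with macrophage markers. That of 0.58 for sFD17 against TP5 was 0.31 with library size, 0.17 with neutrophil markers, −0.49 with no filter and 1.71 with macrophage markers. With no filter, Ido1 and Il4i1 enter and their folds depend on the prior count. Scaling moves all genes together, with a median of all genes of −0.45 in sFD17 and 0.33 in FR17 by neutrophil markers and of 1.42 in sFD17 by macrophage markers. Of 15 values against Ctrl, library size or neutrophil markers turned 0 directions and took 2 under 2-fold (Slc7a11 in FR17, Ass1 in sFD17). Macrophage markers turned 5, which were Slc7a2, Ass1 and Odc1 in FR17, Odc1 in sFD17 and Slc7a11 in TP5. They also moved 3 values of sFD17 across 2-fold, with Slc7a2 under it at −0.85 and Odc1 and Slc7a11 past it at 1.35 and 2.39. Among related genes, 17 values were past 2-fold, and 16 stayed so with DESeq2 size factors (all but Slc25a2 in sFD17), 13 with library size, 13 with neutrophil and 10 with macrophage markers. Those lost with library size and neutrophil markers were Smox in sFD17 and FR17 and Nfkb2 and Tnf in sFD17. Those lost with macrophage markers were Slc25a2 in TP5 and sFD17, Phgdh in sFD17 and FR17, Amd2 and Kynu in sFD17 and Ifng in FR17. No library could be left out, since each group had 1. No paired analysis was possible because each group is 1 library with no replicate number.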
